A study of Mus musculus with 20 samples.

Results

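The G protein-coupled receptors that still carry a numbered GPR name were described here across microglia, macrophages and blood monocytes of a mouse glioma study. A gene was a member if its symbol in the deposited count table was Gpr followed by a number and its level reached 1 CPM, the count scaled to the library's total, in at least 3 of the 20 libraries. Of 90 such symbols among 23329 in the table, 47 met the rule, and 1 of the other 43 had no count in any library. The members were thus chosen by their levels in these same libraries, so levels by group are a description and not a finding. Members just inside the rule, by their third-highest CPM, were Gpr33 at 1.3 and Gpr3 at 1.48, and those just outside were Gpr152 at 0.912, Gpr111 at 0.833 and Gpr123 at 0.818. All 47 members passed the low-count filter of the test, 16 reached 1 CPM in all 20 libraries, and 2, Gpr21 and Gpr133, reached it in libraries of 1 group only. A member that is high in few groups had to differ between groups, so counts of members that changed describe the list and are read beside the share of all genes that changed.

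All mice were C57BL/6. Microglia (MG) and bone-marrow-derived macrophages (BMDM) were sorted from 2 glioma models. In the genetically engineered model (GEMM), tumours followed the injection of 300000 chicken DF1 cells carrying the RCAS-PDGFB-HA and RCAS-shP53 vectors into the brains of Flt3:Cre Rosa26:mTmG mice aged 6 weeks (the protocol also gives 5 to 6 weeks for its injections), in which cells of the blood lineage turn from TdTomato to GFP. Within Cd45+Cd11b+Ly6c-Ly6g- cells, TdTomato+ GFP- cells were taken as MG and GFP+ TdTomato- cells as BMDM. The second model used GL261, a transplantable mouse glioma line, and the labels do not say how those tumours were made or whether the mice carried the reporter. MG from normal brain and Ly6C-high blood monocytes were the references. There were 5 monocyte samples and 3 samples in each of the other 5 groups. Tumour MG and BMDM carry the same 3 tumour numbers within a model, 68702, BB30101 and BB30105 for GEMM and 80766, 80767 and 80769 for GL261. No label says that the samples of normal MG or monocytes came from separate animals, so their p-values measure the spread between samples, which may in part be technical.

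G protein-coupled receptors span the plasma membrane 7 times and pass a bound ligand's signal to heterotrimeric G proteins, after which receptor kinases and arrestins switch them off. The numbered GPR names were given to receptors found by sequence before a ligand was known. Some have since been paired with protons, lipids or metabolites, others are adhesion receptors with long extracellular parts, and a few are membrane proteins of other families that kept the name. Microglia are known for a dense set of such receptors with which they sense their surroundings, Gpr34 and the related P2ry12 among them.

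Library totals were 18113450 to 36297826 counts in MG and BMDM and 5077787 to 7801073 in monocytes, so 1 count is worth most in monocytes. The 8 microglia markers summed to 28181 to 31537 CPM in normal MG, 2782 to 19267 in tumour MG, 768 to 5280 in BMDM and 241 to 353 in monocytes, in the order of the labels. Tumour 80769 stood apart. Its MG had 6996 CPM of the 8 monocyte markers against 625 and 646 in the other GL261 MG libraries, and its BMDM had 26194 against 928 and 945. Most of these sums was Chi3l3, at 5643 CPM in that MG and 22131 in that BMDM, with Fn1 next at 1232 and 3776. The set did not move as a whole: Ly6c2 was at 3.49 CPM in the MG of 80769 against 4.28 and 1.05 in the other GL261 MG, and at 21.2 in its BMDM against 72.7 and 52.9, and Plac8 and F13a1 were lower in its BMDM than in the other GL261 BMDM. The summed microglia markers of its MG were 2782 CPM, against 8044 and 9309. Monocyte libraries 64820 and 64821 had 1288 and 1180 CPM of 8 neutrophil markers, where the other 3 had 7553 to 16236. Monocytes had 145 to 617 CPM of Xist, transcribed from the inactive X chromosome, and at most 2.82 of the Y-linked Ddx3y, whereas every other library had at most 2.73 of Xist and at least 46.3 of Ddx3y. A comparison with monocytes therefore cannot be told apart from one between the sexes. In bulk samples fewer expressing cells and less RNA per cell cannot be told apart, which holds for every level below.

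By group mean, the summed level of the members was highest in normal MG and lowest in monocytes. Their CPM summed to 5831 ± 379 (SD, n = 3) in normal MG, and in GEMM tumours to 3167 ± 544 for MG and 2148 ± 246 for BMDM. In GL261 tumours the sums were 1722 ± 453 for MG and 1957 ± 360 for BMDM, so that MG exceeded BMDM in GEMM and not in GL261, and the 5 monocyte samples had 1416 ± 89.5. Throughout, errors on levels are SDs over these samples. Gpr34 alone was 55.8% of the sum in normal MG, 42.2% in GEMM MG and 16% in GL261 MG. The largest contributor was Gpr65 in GEMM BMDM with 16%, Gpr35 in GL261 BMDM with 24.5% and Gpr141 in monocytes with 29.2%. Genes differ in length, so levels of different genes were compared only as CPM per kb of annotated exon. On that scale Gpr34 led in normal MG at 1557, followed by Gpr56 at 158 and Gpr183 at 149. Gpr65 led in both BMDM groups, at 166 per kb in GEMM and 134 in GL261, with Gpr171 next at 125 and 120. Gpr141 led in monocytes at 69.2. The highest mean was that of normal MG for 12 members, of MG for 4 (GEMM) and 11 (GL261), of BMDM for 10 (GEMM) and 4 (GL261) and of monocytes for 6.

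**Figure D1:**
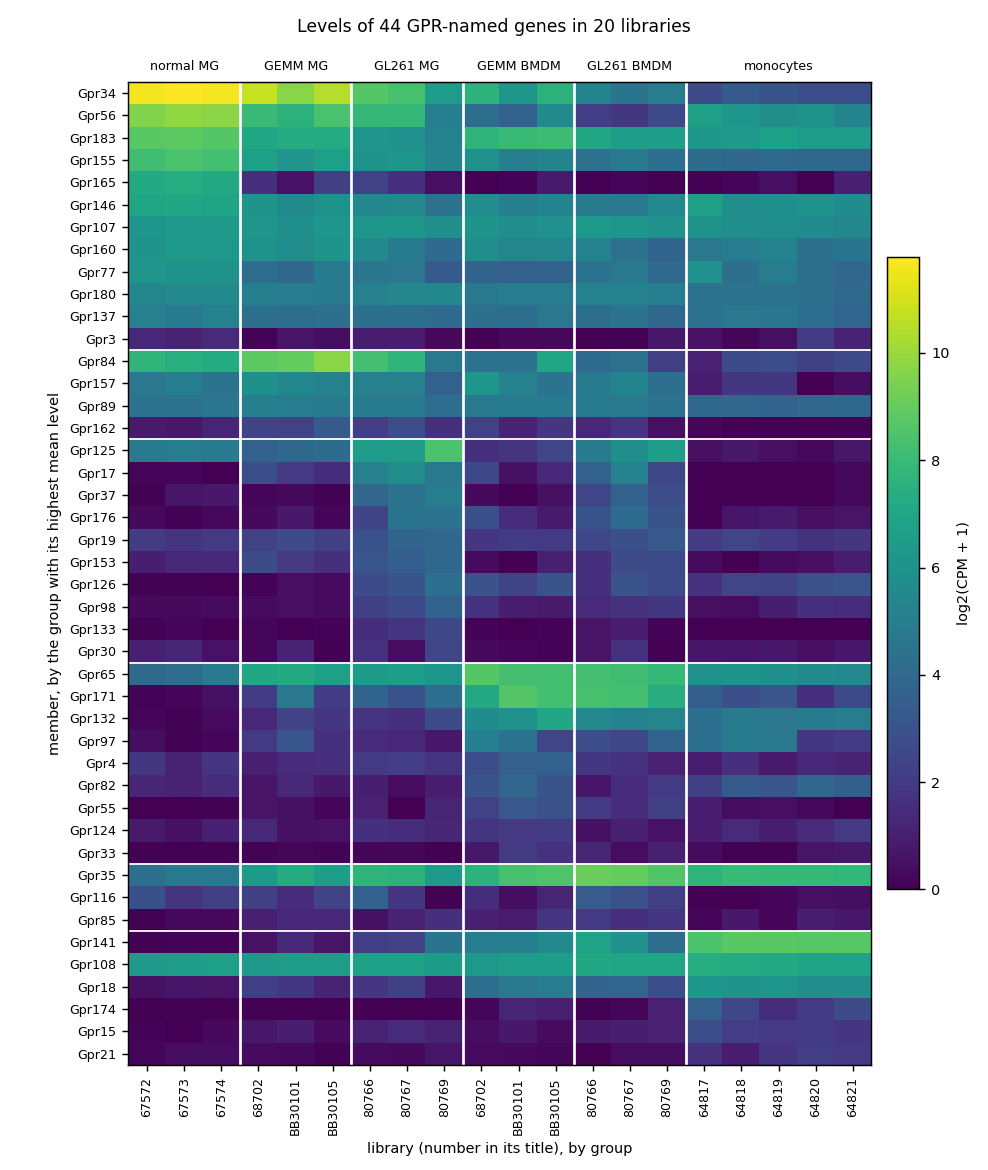
Levels of 44 of the 47 members in the 20 libraries as log2(CPM + 1), with libraries in columns by group and members in rows by the group with their highest mean. The block at the top, led by Gpr34 with a mean of 3254 CPM, is highest in normal MG, and Gpr141 and Gpr18 stand out in monocytes.

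Each comparison used edgeR's quasi-likelihood test over all 15363 genes with enough counts, and a member is said to have risen, fallen or changed where its Benjamini-Hochberg adjusted p was under 0.05. Errors on log2 fold changes are standard errors. Between BMDM and MG of the same model, 18 members were higher and 7 lower in GEMM BMDM, where 12.7% of all genes tested were higher and 8.1% lower. In GL261 tumours 12 were higher and 5 lower, where 10.7% of all genes were higher and 6.81% lower. The members called were thus 53.2% of the list in GEMM and 36.2% in GL261, against 20.8% and 17.5% of all genes. Libraries are not shared between the models, and 15 members differed in the same direction in both, 10 higher and 5 lower, with none opposite, which is 31.9% of the members against 9.26% of all genes tested. The median log2 fold change of the members was 0.02 in GEMM and 0.08 in GL261, beside 0.01 and -0.08 for all genes.

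Against normal MG, 16 members rose and 9 fell in GEMM MG, where 23% of all genes rose and 20.9% fell. In GL261 MG 22 rose and 11 fell, where 30.6% and 27.2% of all genes did. Against monocytes, 22 members were higher and 8 lower in GEMM BMDM, beside 31.6% and 25.7% of all genes, and 20 were higher and 9 lower in GL261 BMDM, beside 34.1% and 28.9%. The shares of members called against monocytes, 63.8% and 61.7%, were near the 57.3% and 63% of all genes. Between models, 9 members were higher and 9 lower in GL261 MG than in GEMM MG, where 18.8% of all genes were higher and 15.5% lower. In BMDM 6 were higher and 11 lower in GL261, where 10.2% of all genes were higher, 9.46% lower and 19.7% either. A lineage difference that itself differed between the models was called for 2 members, Gpr126 and Gpr4, both lower in GL261, where 1.02% of all genes were called lower and 1.63% in either direction. The comparisons with normal MG share the normal samples, and those with monocytes share the monocyte samples.

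**Figure D2:**
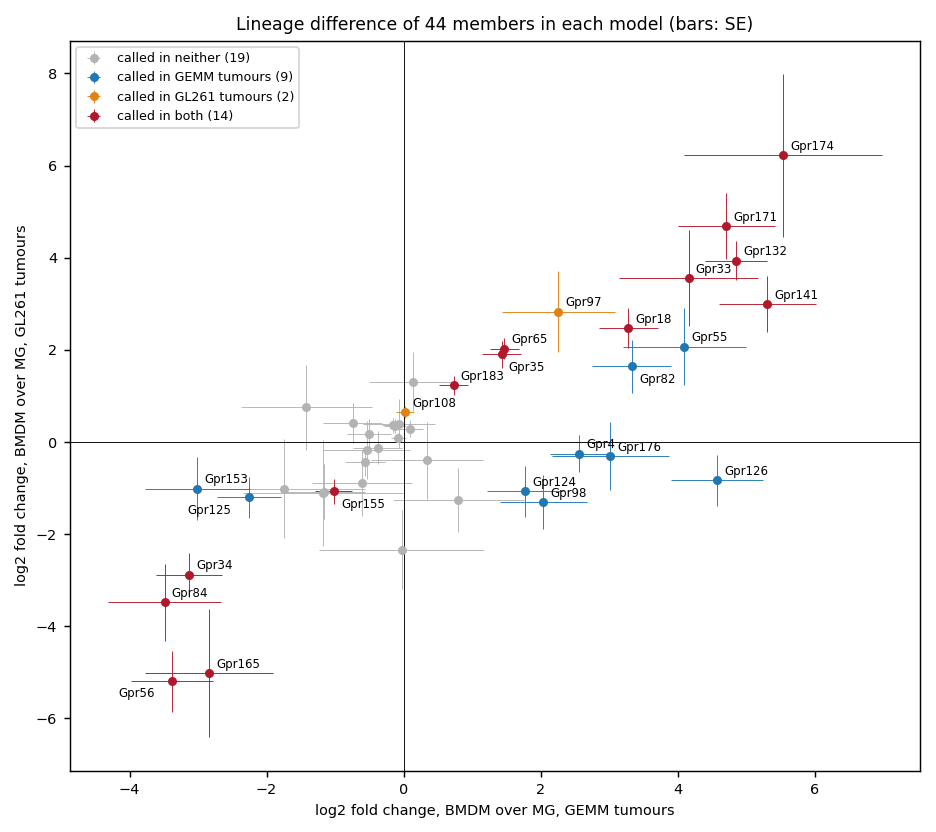
Log2 fold change of BMDM over MG in GEMM tumours (horizontal) and GL261 tumours (vertical) for 44 of the 47 members, with standard errors as bars and colour for the comparisons in which the member was called. Members called in both models lie in the upper right, such as Gpr171 and Gpr132, or in the lower left, such as Gpr34 and Gpr56; Gpr174 and Gpr165 rest on few counts.

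Gpr4, Gpr65 and Gpr132 are proton-sensing receptors, which respond to acid outside the cell, Gpr132 more weakly than the others. All 3 were higher in GEMM BMDM than in GEMM MG, and Gpr65 and Gpr132 were also higher in GL261 BMDM than in GL261 MG.

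Gpr65, which raises cyclic AMP in acid, was at 15.8, 17.7 and 28.5 CPM in normal MG, at 133, 145 and 99.8 in GEMM MG and at 86, 93.8 and 71.4 in GL261 MG. Values by sample follow the tumour or sample numbers, which carry no rank. BMDM had 413, 316 and 302 CPM of Gpr65 in GEMM and 304, 289 and 240 in GL261, and monocytes had 45.4 to 68.7. The 6 BMDM libraries were above all other libraries, and normal MG were the lowest. Gpr65 was 2.77-fold higher in GEMM BMDM than MG (log2 1.47 ± 0.21, adjusted p = 9.23e-05) and 4.08-fold higher in GL261 BMDM than MG (log2 2.03 ± 0.22, adjusted p = 8.64e-06). It had risen 6.72-fold in GEMM MG (log2 2.75 ± 0.22, adjusted p = 7.84e-08) and 3.3-fold in GL261 MG (log2 1.72 ± 0.22, adjusted p = 3.14e-06) over normal MG. Against monocytes the BMDM were 6.71-fold higher in GEMM (adjusted p = 1.94e-09) and 4.85-fold higher in GL261 (adjusted p = 1.34e-08). Every tumour library of either lineage was thus above every library of both references. Opposite-strand exons of Gm47566 cover 24.7% of its exon bases, and the strand setting of the counting is not known.

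Gpr132, which oxidised fatty acids also activate, was at 0.0378 to 0.285 CPM in normal MG. It was at 1.47, 4.41 and 2.7 CPM in GEMM MG and at 2.42, 1.99 and 5.68 in GL261 MG. In BMDM it was at 52.5, 66.2 and 134 CPM in GEMM and 46.1, 39.1 and 40.4 in GL261, and in monocytes at 18.7 to 31.4. The BMDM libraries were all above the monocytes and the monocytes all above MG. The lineage difference was 28.9-fold in GEMM, with BMDM higher (log2 4.85 ± 0.45, adjusted p = 1.68e-06), and 15.4-fold in GL261 (log2 3.94 ± 0.43, adjusted p = 1.05e-05). Tumour MG were higher than normal MG by 4.32 ± 0.57 on the log2 scale in GEMM and 4.10 ± 0.58 in GL261. Without normal MG library 67574, which held most of the normal counts, these became 5.08 and 4.75. GL261 BMDM were lower than GEMM BMDM (log2 -1.13 ± 0.38, adjusted p = 0.0444), and that call was lost without GEMM BMDM BB30105 (log2 -0.74, adjusted p = 0.199) or without any 1 of the 3 GL261 BMDM libraries (adjusted p from 0.0825 to 0.138), with only those groups in the fit (adjusted p = 0.0616) and with RLE size factors (adjusted p = 0.0542).

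Gpr4, otherwise best known in endothelial cells, was at 5.96, 11.1 and 11.7 CPM in GEMM BMDM and at 2.71, 2.33 and 1.13 in GL261 BMDM. MG had 1.08, 1.68 and 2.07 CPM in GEMM and 3.07, 3.48 and 2.44 in GL261, so that the GEMM BMDM were above all other libraries. Gpr4 was 5.91-fold higher in BMDM than MG in GEMM (log2 2.56 ± 0.42, adjusted p = 0.000313), and in GL261 the difference was -0.25 ± 0.41. The difference between the models was -2.81 ± 0.58 (adjusted p = 0.02). It was no longer called without GEMM MG 68702, GEMM BMDM BB30101 or GEMM BMDM BB30105 (log2 -2.50, -2.71 and -2.72, adjusted p = 0.0773, 0.06 and 0.0531), nor in a fit of just the groups compared (adjusted p = 0.0778). GEMM BMDM also had more Gpr4 than GL261 BMDM by 5.12-fold (GL261 over GEMM log2 -2.36 ± 0.42, adjusted p = 0.000866). The 7 endothelial markers summed to 57.1 to 158 CPM in GEMM BMDM, 90.8 to 331 in GL261 BMDM and 89.3 to 102 in monocytes. Most of the largest sums was Pecam1 and Flt1, at 106 and 47.2 CPM in GEMM BMDM BB30101 and 233 and 77.2 in GL261 BMDM 80769. The part of endothelial cells in the Gpr4 result was not tested.

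Of the lipid and oxysterol receptors in the fixed list, 6 were members. In GEMM 4 of them were higher in BMDM than MG (Gpr18, Gpr55, Gpr174 and Gpr183) and 2 were lower (Gpr34 and Gpr84). In GL261 Gpr18, Gpr174 and Gpr183 were higher, Gpr34 and Gpr84 were lower, and Gpr55 did not pass the test (log2 2.07 ± 0.83).

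Gpr34, a receptor for lysophosphatidylserine, was the most abundant member in MG. It was at 3088, 3532 and 3143 CPM in normal MG, at 1776, 829 and 1406 in GEMM MG and at 411, 327 and 90.8 in GL261 MG. BMDM had 195, 73.4 and 189 CPM in GEMM and 39, 22.1 and 31.2 in GL261, and monocytes 5.38 to 9.16. The 3 MG groups did not overlap one another, and within each model every MG library was above every BMDM library. BMDM were 8.75-fold lower than MG in GEMM (log2 -3.13 ± 0.48, adjusted p = 0.00016) and 7.36-fold lower in GL261 (log2 -2.88 ± 0.48, adjusted p = 0.000429). GL261 MG were 14.4-fold lower than normal MG (log2 -3.85 ± 0.50, adjusted p = 4.25e-06). GEMM MG were 2.21-fold lower than normal MG (log2 -1.14 ± 0.45, adjusted p = 0.0469), a call that was lost without any 1 of the 3 normal libraries (adjusted p = 0.091, 0.124 and 0.0834) or without GEMM MG BB30101 (log2 -0.85, adjusted p = 0.201) or BB30105 (adjusted p = 0.1), with RLE size factors (adjusted p = 0.0546) and with no filter on low counts (adjusted p = 0.087). GL261 cells had less Gpr34 than GEMM cells of the same lineage, by 6.53-fold in MG (log2 -2.71 ± 0.47, adjusted p = 0.000346) and 5.49-fold in BMDM (log2 -2.46 ± 0.47). BMDM were nevertheless above monocytes, 25-fold in GEMM (adjusted p = 8.27e-08) and 4.55-fold in GL261. The summed microglia markers moved in the same order, 28181 CPM or more in normal MG, 12607 to 19267 in MG and 2796 to 5280 in BMDM of GEMM tumours, and 2782 to 9309 in MG and 768 to 1676 in BMDM of GL261 tumours, and their part in the Gpr34 result was not tested.

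Gpr84, a receptor for medium-chain fatty acids that inflammation is known to induce in microglia, was at 207, 169 and 151 CPM in normal MG and at 457, 512 and 816 in GEMM MG. GL261 MG had 308, 209 and 25.5 CPM, BMDM had 19.9, 21 and 124 (GEMM) and 16.2, 21 and 3.71 (GL261), and monocytes had 1.15 to 5.83. GEMM MG were above all other libraries, and the GL261 MG of tumour 80769 lay among the BMDM. Gpr84 was 11.2-fold lower in BMDM than MG in GEMM (log2 -3.49 ± 0.82, adjusted p = 0.00534) and 11.1-fold lower in GL261 (log2 -3.48 ± 0.83, adjusted p = 0.0071). Without GEMM BMDM BB30105 the first became -4.84, and without GL261 MG 80766 the second became -2.86, both still called. The rise from normal to GEMM MG, 3.7-fold on the fitted scale, did not pass the test (log2 1.89 ± 0.77, adjusted p = 0.0543), although the groups did not overlap. It passed with only those groups in the fit (adjusted p = 0.000144), with DESeq2 (adjusted p = 0.0402) and with RLE size factors (adjusted p = 0.0477). In a fit of just the groups compared, on the other hand, the lineage difference in GL261 was no longer called (adjusted p = 0.0957). GL261 MG were lower than GEMM MG (log2 -2.13 ± 0.77, adjusted p = 0.0409), but not with only those groups in the fit (adjusted p = 0.0894), with no filter on low counts (adjusted p = 0.0892) or without both libraries of tumour 80769 (adjusted p = 0.0754), nor without GEMM MG 68702, GEMM MG BB30105 or GL261 MG 80767 (adjusted p = 0.0541, 0.105 and 0.0873). Opposite-strand exons of Gm49482 cover 39.5% of the exon bases of Gpr84.

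Gpr183, also called EBI2, is the receptor for oxysterols that guide immune cells. It was at 439, 446 and 409 CPM in normal MG, at 127, 158 and 149 in GEMM MG and at 70.8, 61.6 and 35.3 in GL261 MG. BMDM had 199, 245 and 272 CPM in GEMM and 132, 96.2 and 92.9 in GL261, and monocytes 75.4 to 98.5. Within MG the level fell with no overlap from normal to GEMM to GL261, and in each model the BMDM libraries lay above the MG. Gpr183 was 2.73-fold lower in GEMM MG (log2 -1.45 ± 0.21, adjusted p = 3.47e-05) and 9.5-fold lower in GL261 MG (log2 -3.25 ± 0.23, adjusted p = 6.99e-09) than in normal MG. It was higher in BMDM than MG in GL261 (2.34-fold, log2 1.23 ± 0.21, adjusted p = 0.000638), though not in a fit of just the groups compared (adjusted p = 0.0769). In GEMM the difference was 1.65-fold (log2 0.73 ± 0.21, adjusted p = 0.0202), and it was lost when any 1 of the 6 libraries was left out (adjusted p from 0.0513 to 0.155). GEMM BMDM were 3-fold higher than monocytes (log2 1.59 ± 0.18, adjusted p = 1.18e-06). GL261 cells were lower than GEMM cells in both lineages, by 3.48-fold in MG (adjusted p = 1.55e-05) and 2.45-fold in BMDM (adjusted p = 0.00044).

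Gpr18, for which lipid ligands have been proposed, was at 54.2 to 73.2 CPM in monocytes, 18.3, 25.6 and 29.6 in GEMM BMDM and 12.4, 13.2 and 6.07 in GL261 BMDM. MG had 1.23 to 3.51 CPM in GEMM, 0.669 to 3.64 in GL261 and 0.461 to 0.606 in normal brain. The order from monocytes through BMDM to MG held with no overlap. Gpr18 was 9.73-fold higher in BMDM than MG in GEMM (log2 3.28 ± 0.43, adjusted p = 3.73e-05) and 5.54-fold higher in GL261 (log2 2.47 ± 0.43, adjusted p = 0.000668), the latter not called in a fit of just the groups compared (adjusted p = 0.0776). It was lower in BMDM than in monocytes, by 2.41-fold in GEMM (log2 -1.27 ± 0.36, adjusted p = 0.00614) and 6.19-fold in GL261 (log2 -2.63 ± 0.39, adjusted p = 1.46e-05). Gpr55, a receptor for lysophosphatidylinositol, averaged 6.29 ± 2.17 CPM in GEMM BMDM and 2.81 ± 0.941 in GL261 BMDM, and under 1 CPM in every other group. It was higher in BMDM than MG in GEMM (17.2-fold, log2 4.10 ± 0.90, adjusted p = 0.00314). Gpr174, a second lysophosphatidylserine receptor better known from lymphocytes, averaged 5.29 ± 3.64 CPM in monocytes. BMDM averaged 0.831 CPM (GEMM) and 0.429 (GL261), and the MG groups 0 to 0.0145. The MG held too few counts for a fold. Its call in GL261 was lost with the replicate block (adjusted p = 0.0793), without both libraries of tumour 80769 (adjusted p = 0.305), without any 1 of the 3 GL261 MG libraries and without GL261 BMDM 80769 (adjusted p = 0.191). In GEMM its call was lost without MG BB30101 or BB30105 (adjusted p = 0.0576 and 0.0568). The 6 B-cell markers ranged from 77.8 to 694 CPM in monocytes and from 8.28 to 34 in BMDM, and their part in the Gpr174 result was not tested.

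Among the enzymes that make the oxysterol ligand of Gpr183, Ch25h, which adds the hydroxyl at carbon 25, averaged 1.14 ± 0.407 CPM in normal MG, 40.7 ± 19.6 in GEMM MG and 25.6 ± 2.2 in GL261 MG. It was 39.2-fold higher in GEMM MG (log2 5.29 ± 0.52, adjusted p = 6.50e-07) and 18-fold higher in GL261 MG (log2 4.17 ± 0.50, adjusted p = 2.05e-06) than in normal MG, the reverse of Gpr183. BMDM had 8.39 ± 7.41 CPM of Ch25h in GEMM and 49.6 ± 9.08 in GL261, and the lineage difference differed between the models (log2 3.58 ± 0.62, adjusted p = 0.00795). The list held 4 enzymes, Ch25h, Cyp7b1, Cyp27a1 and Hsd3b7, of which Hsd3b7 breaks the ligand down and does not make it. Of these 4, 3 were higher and 1, Ch25h, was lower in GEMM BMDM than MG, and 2 were higher in GL261. Hsd3b7 averaged 49 ± 6.28 CPM in GEMM MG and 82 ± 12.5 in GEMM BMDM, and 67.8 ± 11.5 in GL261 MG and 129 ± 7.56 in GL261 BMDM. Cyp7b1, which adds the hydroxyl at carbon 7, was 16-fold higher in GEMM BMDM than MG (log2 4.00 ± 0.86, adjusted p = 0.00276), and Cyp27a1 was 4.04-fold higher (log2 2.02 ± 0.17, adjusted p = 1.23e-06). Abhd12, which breaks down lysophosphatidylserine, the ligand of Gpr34, averaged 1108 ± 62.8 CPM in normal MG, 1306 ± 120 in GEMM MG and 565 ± 226 in GL261 MG. It was lower in BMDM than MG in both models, by 2.53-fold in GEMM (log2 -1.34 ± 0.25, adjusted p = 0.000966) and 1.79-fold in GL261 (log2 -0.84 ± 0.25, adjusted p = 0.0264).

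**Figure D3:**
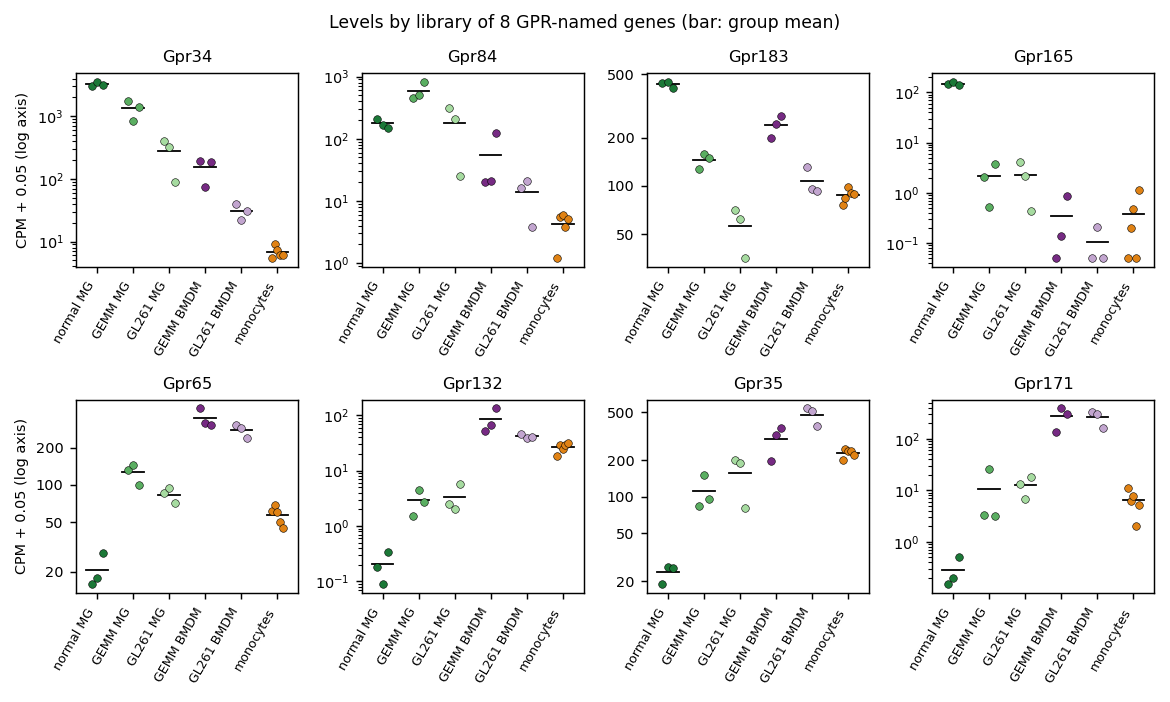
Levels of 8 members by library, as CPM + 0.05 on a log axis, with groups on the horizontal axis and a bar at each group mean. The upper row shows members that are high in MG, with Gpr165 at 140 to 161 CPM in normal MG and at most 4.08 elsewhere; the lower row shows members that are high in BMDM, with Gpr65 at 240 to 413 CPM there.

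Of the members that sense other metabolites or chemoattractants, Gpr35, which has been paired with kynurenic acid and other metabolites, was at 18.7, 26.3 and 25.5 CPM in normal MG. It was at 84.4, 152 and 95.5 CPM in GEMM MG and at 201, 190 and 80.2 in GL261 MG. BMDM had 198, 326 and 370 CPM in GEMM and 540, 513 and 387 in GL261, and monocytes 200 to 248. Every tumour library was above the normal MG, and GL261 BMDM were above all other libraries. Gpr35 was 5.13-fold higher in GEMM MG (log2 2.36 ± 0.30, adjusted p = 8.53e-06) and 5.46-fold higher in GL261 MG (log2 2.45 ± 0.30, adjusted p = 2.8e-06) than in normal MG. BMDM were above MG by 2.69-fold in GEMM (log2 1.43 ± 0.29, adjusted p = 0.00187) and 3.72-fold in GL261 (log2 1.90 ± 0.30, adjusted p = 0.000263). GL261 BMDM were 2.09-fold higher than monocytes (adjusted p = 0.00136). Gpr77, the second receptor for complement C5a, averaged 66.4 ± 3.62 CPM in normal MG, 20.6 ± 7.4 in GEMM MG and 19.1 ± 8.56 in GL261 MG. It fell 2.93-fold in GEMM MG (log2 -1.55 ± 0.44, adjusted p = 0.00807) and 4.29-fold in GL261 MG (log2 -2.10 ± 0.45). The other 3 members of this list, Gpr15, Gpr30 and Gpr33, stayed under 5 CPM in every group mean.

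The purinergic branch, the family of P2ry12, had 3 members. Gpr171 was at 0.0987, 0.151 and 0.462 CPM in normal MG, at 3.3, 25.5 and 3.18 in GEMM MG and at 13, 6.85 and 18.1 in GL261 MG. BMDM had 137, 391 and 306 CPM in GEMM and 328, 308 and 164 in GL261, whereas monocytes had 1.97 to 10.9. The BMDM were above every library of MG and of monocytes. Gpr171 was 26.2-fold higher in BMDM than MG in GEMM (log2 4.71 ± 0.71, adjusted p = 0.00014) and 25.9-fold higher in GL261 (log2 4.69 ± 0.71, adjusted p = 0.000214). It was 46.7-fold higher in GEMM BMDM (log2 5.55 ± 0.62, adjusted p = 7.04e-07) and 40.9-fold higher in GL261 BMDM (log2 5.35 ± 0.61, adjusted p = 7.75e-07) than in monocytes. The GEMM lineage difference became 6.30 (adjusted p = 7.22e-06) without GEMM MG BB30101, the MG library with the highest level. The same library moved the rise from normal to GEMM MG from 5.58 to 3.93, and normal MG 67574 moved it to 6.48, all called. Gpr171 lies at chr3:59096448-59101821 (GRCm38, minus strand) within an intron of Med12l, whose mean was 59.7 CPM in normal MG, 18.4 and 13.7 in MG and 7.65 and 3.88 in BMDM of GEMM and GL261 tumours, so the host gene was highest where Gpr171 was lowest.

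The 7 dendritic-cell markers summed to 446, 1094 and 1319 CPM in GEMM BMDM and 117, 78 and 494 in those of GL261, with 127 to 242 in monocytes and at most 70.4 in MG, with no marker at 0 in any BMDM group. The highest MG value, 70.4, was that of GEMM MG BB30101, which was also highest for Gpr171 among GEMM MG. By group mean Gpr171 was at 267 ± 89.3 CPM in GL261 BMDM and at 278 ± 130 in GEMM BMDM. The dendritic-cell sums of these groups overlapped, with 494 CPM in GL261 BMDM 80769 above 446 in GEMM BMDM 68702. Of the markers, Ccr7 (349 against 134 CPM) and Zbtb46 (14.2 against 11.3) were higher in that GL261 library. Cd209a (55.7 against 104), Itgae (17 against 102), Flt3 (52.9 against 86), Xcr1 (3.71 against 6.84) and Clec9a (1.77 against 2.34) were lower in it. The part of dendritic cells in the levels of Gpr171 and Gpr132 was not tested.

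Gpr82 averaged 9.38 ± 3.67 CPM in GEMM BMDM, 9.03 ± 3.88 in monocytes, 1.83 ± 1.19 in GL261 BMDM and at most 1.48 in MG groups. It was 10-fold higher in GEMM BMDM than MG (log2 3.33 ± 0.58, adjusted p = 0.000502) and 5.62-fold lower in GL261 than in GEMM BMDM (log2 -2.49 ± 0.56, adjusted p = 0.00464). Without GL261 BMDM 80769 the latter became -3.16, still called.

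The adhesion receptors, which carry a long extracellular part that is cut from the membrane-spanning part, had 9 members. In GEMM Gpr98, Gpr124 and Gpr126 were higher in BMDM than MG, and Gpr56 and Gpr125 were lower. In GL261 Gpr97 was higher and Gpr56 lower. Gpr125 was not called in GL261 (log2 -1.20 ± 0.44, adjusted p = 0.0656), but it was lower in BMDM with tumour number as a replicate block (log2 -1.08, adjusted p = 0.0123) and with DESeq2 (adjusted p = 0.0439).

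Gpr56, a receptor for collagen and tissue transglutaminase that is known as a marker of resident microglia, was at 765, 933 and 863 CPM in normal MG and at 260, 189 and 338 in GEMM MG. GL261 MG had 228, 231 and 32.2 CPM, BMDM had 18.3, 11.7 and 47 (GEMM) and 3.36, 2.65 and 4.98 (GL261), and monocytes had 39.5 to 104. Normal MG were above all other libraries, and BMDM lay below MG except that GL261 MG 80769 fell inside the range of GEMM BMDM. Gpr56 was 10.4-fold lower in BMDM than MG in GEMM (log2 -3.38 ± 0.60, adjusted p = 0.000563) and 36.4-fold lower in GL261 (log2 -5.19 ± 0.66, adjusted p = 3.96e-05). Without GEMM BMDM BB30105 the former became -4.10. It was 6.37-fold lower in GL261 MG than normal MG (log2 -2.67 ± 0.58, adjusted p = 0.000736). For GEMM MG the call (log2 -1.56 ± 0.56, adjusted p = 0.0295) was lost without any 1 of the 3 normal libraries (adjusted p from 0.0546 to 0.0788) or without GEMM MG 68702 or BB30101 (adjusted p = 0.0774 and 0.121), and with no filter on low counts (adjusted p = 0.0743). GL261 BMDM were 18.1-fold lower than monocytes (log2 -4.18 ± 0.62), with every library below every monocyte library. In GEMM, where BMDM BB30105 lay inside the monocyte range, the call (log2 -1.27 ± 0.52, adjusted p = 0.0434) was lost without BMDM 68702 or BB30101 or monocytes 64817, 64818 or 64820 (adjusted p from 0.0604 to 0.209) and with no filter on low counts (adjusted p = 0.113).

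Gpr97, better known from neutrophils, was at 32.5, 21.5 and 4.46 CPM in GEMM BMDM, with 5.97, 4.72 and 12.5 for those of GL261, and at 18.7, 26.7, 25.3, 2.76 and 3.23 in monocytes. The monocytes fell into a high trio and a low pair. Its lineage call in GL261 (log2 2.83 ± 0.88, adjusted p = 0.0338) was lost without both libraries of tumour 80769 (adjusted p = 0.276) and without any 1 of 5 of the 6 libraries (adjusted p from 0.0542 to 0.123), the exception being GL261 BMDM 80767, and with no filter on low counts (adjusted p = 0.0778). In GEMM it did not pass (log2 2.26 ± 0.82, adjusted p = 0.0594), but did with tumour number as a block (adjusted p = 0.0482) and with DESeq2 (adjusted p = 0.0301). The 8 neutrophil markers summed to 7553, 14377, 16236, 1288 and 1180 CPM in the same 5 monocyte libraries and to 1609, 89.2 and 11.9 in GEMM BMDM. That is the same order as Gpr97 in GEMM and the same trio and pair in monocytes. In GL261 BMDM the sums were 7.62, 12.1 and 12.2, not the order of Gpr97. The low monocyte pair also had less Gpr97 than GEMM BMDM BB30101, whose sum was 89.2. Retnlg alone was 1469 CPM of the 1609 in GEMM BMDM 68702. The part of neutrophils in the Gpr97 result was not tested.

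Of the members, 5 pairs lie within 200 kb of each other, and the 2 genes of each pair had their highest mean in different groups. That describes the pairs and is no trait of neighbours. The highest means of all members were spread over the 6 groups, with at most 12 members in any 1, so most pairs of members differ in this way. Gpr56 at 94974751 to 95014217 and Gpr97 at 95017692 to 95045250 lie side by side on the plus strand of chr8 (GRCm38), 3.47 kb apart. Gpr56 was highest in normal MG, where Gpr97 was under 1 CPM. On the minus strand of chr14, Gpr18 at 121911253 to 121915781 and Gpr183 at 121952551 to 121965195 are 36.8 kb apart in an intron of Ubac2. Gpr183 was highest in normal MG, where Gpr18 was under 1 CPM, and Gpr18 was highest in monocytes. Gpr34 at 13632089 to 13640858 and Gpr82 at 13661363 to 13667433 on chrX lie 20.5 kb apart in an intron of Cask, and Gpr82 averaged 1.48 CPM in normal MG, where Gpr34 was at its highest. The mean of Cask, 89.1 CPM in normal MG, was 21.8 in GEMM MG and 22.6 in GL261 MG, and that of Ubac2 ran from 50.7 to 104 over the 6 groups. The part of host transcripts in the counts of these receptors was not tested.

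Stretches of the windows before the start of some of these neighbours are printed as a description of their letters. They are RefSeq's (GRCm38.p6) and run 5′ to 3′ on the gene's strand. Each runs from the far end of its window up to the first base of any annotated exon, so that of Gpr56 stops well before the start. The Gpr56 stretch lies inside the annotated span of the gene, which begins at 94974751. Windows of 250 bases before RefSeq starts were searched on both strands for GAGGAA, the core bound by the myeloid factor PU.1, and for GAAA, any 2 bases and GAAA again, a pair of cores bound by interferon regulatory factors. The motifs do not overlap each other in the windows shown, and capitals mark a match.
Gpr56, chr8:94976859-94976992, plus strand, first of 2 starts: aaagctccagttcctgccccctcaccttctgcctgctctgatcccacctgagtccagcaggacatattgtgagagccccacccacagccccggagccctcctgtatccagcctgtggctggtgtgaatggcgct
Gpr97, chr8:95017442-95017691, plus strand: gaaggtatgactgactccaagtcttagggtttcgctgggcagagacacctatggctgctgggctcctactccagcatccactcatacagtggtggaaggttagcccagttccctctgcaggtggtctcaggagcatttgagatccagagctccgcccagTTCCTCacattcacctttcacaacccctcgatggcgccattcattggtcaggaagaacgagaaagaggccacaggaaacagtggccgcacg
Gpr18, chr14:121915889-121916138, minus strand: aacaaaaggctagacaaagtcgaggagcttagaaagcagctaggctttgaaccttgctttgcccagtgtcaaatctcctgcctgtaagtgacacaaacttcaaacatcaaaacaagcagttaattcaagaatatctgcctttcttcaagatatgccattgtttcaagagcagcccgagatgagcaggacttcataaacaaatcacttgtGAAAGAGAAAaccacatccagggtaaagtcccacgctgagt
Gpr183, chr14:121965196-121965443, minus strand: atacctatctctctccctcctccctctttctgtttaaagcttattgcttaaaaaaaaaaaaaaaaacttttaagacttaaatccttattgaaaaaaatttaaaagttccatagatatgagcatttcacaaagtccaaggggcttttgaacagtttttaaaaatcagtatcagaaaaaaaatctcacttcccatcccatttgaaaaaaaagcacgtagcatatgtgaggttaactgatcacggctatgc
The window of Gpr97 holds GAGGAA on the other strand, the window of Gpr18 holds the paired core, and those of Gpr56 and Gpr183 hold neither. GAGGAA occurs in 23.3% of all 32851 windows, in the windows of 25.9% of 27025 genes and of 12 of the 38 members with a window (31.6%). The paired core occurs in 2.98% of all windows, for 3.46% of genes and for 3 of the 38 members (7.89%), Gpr15, Gpr18 and Gpr19. A match is a description of letters and not a binding site.

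**Figure D4:**
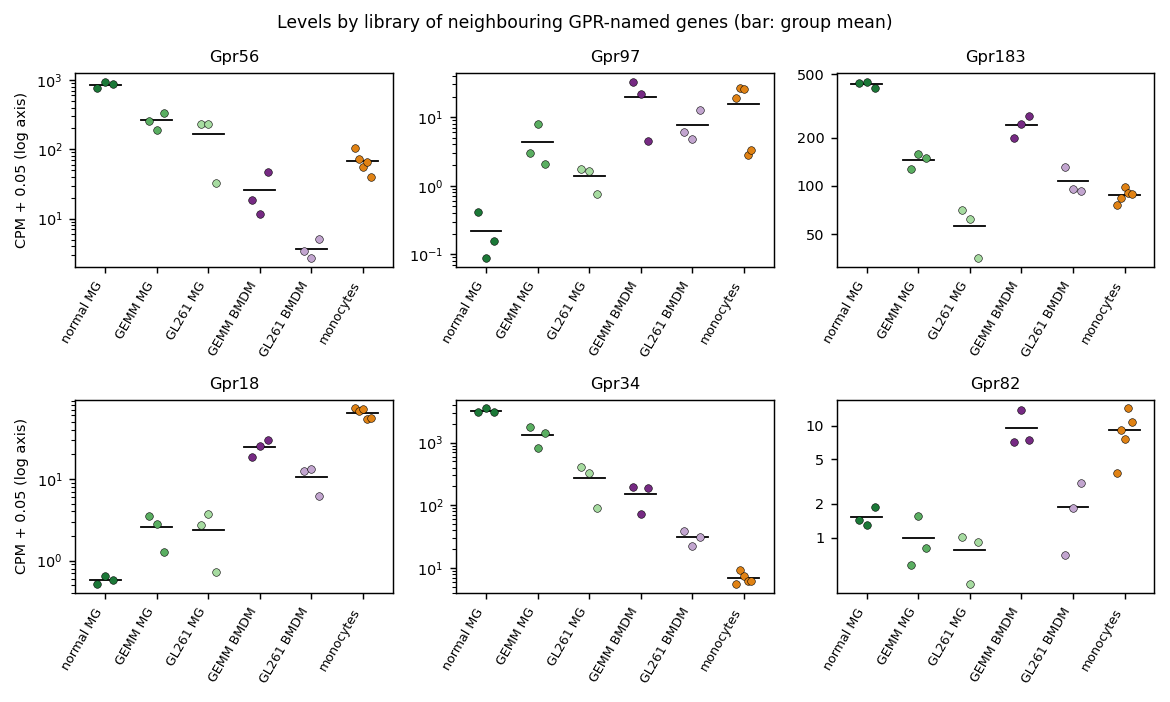
Levels by library, as CPM + 0.05 on a log axis, of 6 members that lie beside another member in the genome, with groups on the horizontal axis and a bar at each group mean. In group mean Gpr56 and Gpr97, 3.47 kb apart, differ in opposite directions between normal MG and GEMM BMDM, as do Gpr34 and Gpr82. In tumour MG, however, Gpr82 had lower means than in normal MG, as Gpr34 did, at 0.93 CPM in GEMM and 0.716 in GL261 against 1.48.

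A set of members was highest in GL261 MG. Gpr125, Gpr17, Gpr37, Gpr176, Gpr19, Gpr126 and Gpr98 were higher in GL261 MG than in GEMM MG, and Gpr125, Gpr17, Gpr37, Gpr19 and Gpr153 were higher in GL261 BMDM than in GEMM BMDM. Gpr17 marks maturing oligodendrocyte precursors, Gpr37 is known from oligodendrocytes, Gpr126 from Schwann cells, and Gpr98 is the very large receptor of hearing. Gpr125 and Gpr176 are orphans.

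Gpr125 was at 86.3, 91.6 and 344 CPM in GL261 MG and 28.7, 58 and 93.3 in GL261 BMDM, against 29 ± 2.04 in normal MG, 14.3 ± 2.7 in GEMM MG and 3.01 ± 1.25 in GEMM BMDM. The GL261 MG of tumour 80769 was the highest library. GL261 exceeded GEMM by 8.79-fold in MG (log2 3.14 ± 0.47, adjusted p = 9.63e-05) and 18.4-fold in BMDM (log2 4.20 ± 0.50, adjusted p = 2.69e-05). Without that MG library the former became 2.22 and the rise over normal MG went from 2.25 to 1.33, both called. Gpr37 was at 13.9, 20.6 and 29.9 CPM in GL261 MG and 4.51, 11.5 and 5.84 in GL261 BMDM, and under 1 CPM in every library of the other groups. It was higher in GL261 MG than in GEMM MG (log2 6.90 ± 0.94, adjusted p = 4.50e-05) and in GL261 BMDM than in GEMM BMDM (log2 4.85 ± 0.85, adjusted p = 0.000723). Gpr17 was at 34.5, 55.5 and 25.7 CPM in GL261 MG and 11.8, 34.7 and 4.84 in GL261 BMDM, against 6.16, 2.92 and 1.95 in GEMM MG and 4.95, 0.456 and 1.56 in GEMM BMDM. Its excess was 7.69-fold in MG (log2 2.94 ± 0.76, adjusted p = 0.0063) and 6.3-fold in BMDM (log2 2.66 ± 0.76, adjusted p = 0.0194). The latter was lost without GEMM BMDM BB30101 or BB30105 or GL261 BMDM 80767 (adjusted p = 0.0662, 0.0722 and 0.144) and in a fit of just the groups compared (adjusted p = 0.128), and became 3.99 without GEMM BMDM 68702.

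Gpr176 averaged 16 ± 10.2 CPM in GL261 MG and 10.4 ± 5.34 in GL261 BMDM, and was higher in GL261 than in GEMM MG (log2 4.90 ± 0.90, adjusted p = 0.00054). Gpr98 averaged 6.83 ± 4.26 CPM in GL261 MG and was also higher there than in GEMM MG (log2 3.94 ± 0.67, adjusted p = 0.000268). Its higher level in GEMM BMDM than GEMM MG (log2 2.04 ± 0.64) was lost without any 1 of the 3 GEMM MG libraries or without GEMM BMDM 68702 (adjusted p from 0.0621 to 0.186), and that of Gpr176 (log2 3.02 ± 0.85) without GEMM MG 68702 or BB30105 or GEMM BMDM 68702 (adjusted p from 0.0841 to 0.166) and in a fit of just the groups compared (adjusted p = 0.0641). Gpr153 averaged 10.8 ± 3.33 CPM in GL261 MG and 4.3 ± 1.9 in GL261 BMDM, and it was lower in BMDM than MG in GEMM (8.05-fold, log2 -3.01 ± 0.76, adjusted p = 0.00833). Without GEMM BMDM BB30105 that became -4.44, and in a fit of just the groups compared it was not called (adjusted p = 0.0547), nor was its excess in GL261 over GEMM BMDM (adjusted p = 0.0785). Gpr19 averaged 11.2 ± 3.88 CPM in GL261 MG and rose 3.07-fold there over normal MG (log2 1.62 ± 0.30, adjusted p = 0.000178). Its excess over GEMM was lost in MG without any of 4 libraries (adjusted p from 0.0923 to 0.149) and in BMDM without any of 4 (adjusted p from 0.0552 to 0.164), in each case with GL261 80769 among them, and in both in a fit of just the groups compared (adjusted p = 0.0894 and 0.0765) or no filter on low counts (adjusted p = 0.0583 and 0.0595).

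Gpr126 differed between the models in its lineage pattern. It was at 0.0867, 0.386 and 0.278 CPM in GEMM MG and 7.14, 4.35 and 6.99 in GEMM BMDM, but at 5.53, 7.23 and 19 in GL261 MG and 2.01, 7.16 and 5.21 in GL261 BMDM. The GEMM groups were far apart, and the GL261 groups overlapped. Gpr126 was 23.7-fold higher in BMDM than MG in GEMM (log2 4.57 ± 0.67, adjusted p = 0.000104), and in GL261 the difference was -0.83 ± 0.55. The difference between the models was -5.39 ± 0.86 (adjusted p = 0.0047), and it became -4.70 without GL261 MG 80769 (adjusted p = 0.00633). GL261 MG were 29.3-fold higher than GEMM MG (log2 4.87 ± 0.67, adjusted p = 5.14e-05), which became 4.18 without that library. Monocytes had 2.31 to 7.71 CPM, so BMDM of both models lay in or near their range.

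The 7 markers of oligodendrocyte precursors or glioma cells summed to 465, 711 and 1027 CPM in GL261 MG and 163, 387 and 285 in GL261 BMDM. The GEMM sums were 142, 178 and 115 CPM in MG and 55, 13.1 and 81.8 in BMDM, and normal MG had 1.58 to 4.45 and monocytes 0.153 to 1.58. In GL261 both the sums and the levels of Gpr17, Gpr37, Gpr125 and Gpr176 were higher than in GEMM cells of the same lineage in group mean, and their part in these results was not tested. Gpr37, Gpr98 and Gpr126 stayed under 1 CPM in every GEMM MG library, where the sums were 115 CPM or more.

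**Figure D5:**
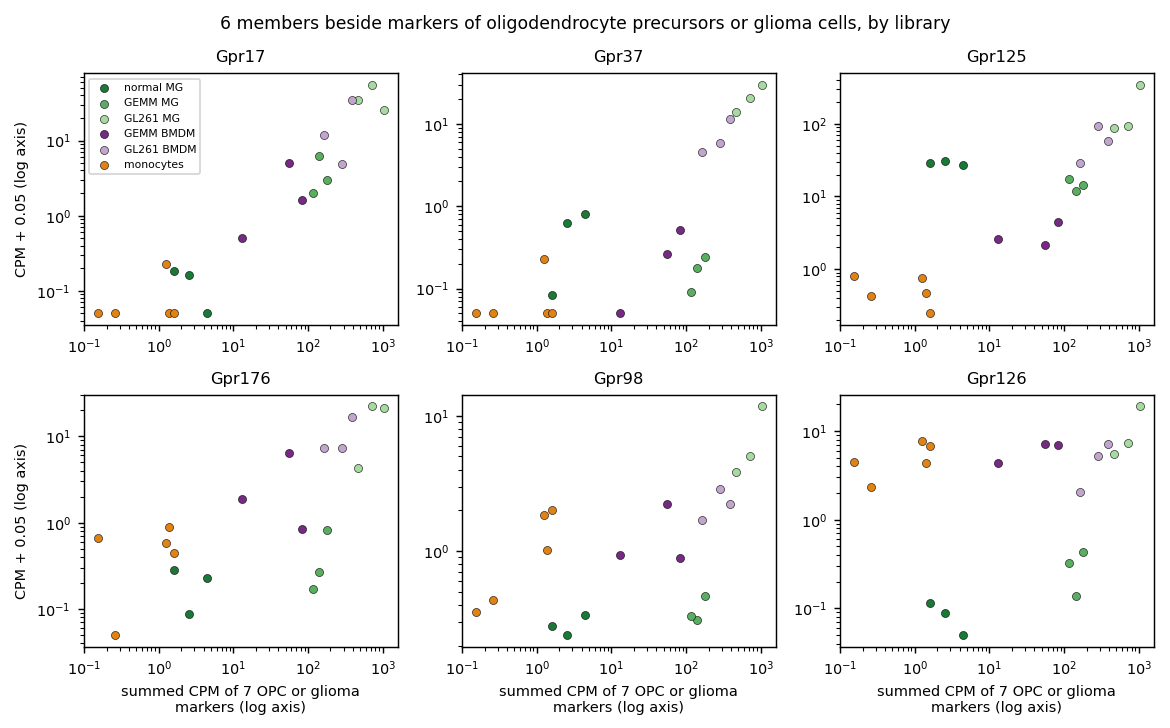
Levels of 6 members by library (vertical, CPM + 0.05, log axis) beside the summed CPM of 7 markers of oligodendrocyte precursors or glioma cells (horizontal, log axis), coloured by group. GL261 MG, with sums of 465 to 1027 CPM, lie at the upper right in every panel, and GEMM MG, with sums of 115 to 178, lie low for Gpr37, Gpr98 and Gpr126.

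Of the other class A members, mostly orphans, Gpr165 was close to restricted to normal MG in these libraries. It was at 146, 161 and 140 CPM there, in tumour MG at 2.04, 0.468 and 3.74 (GEMM) and 4.08, 2.1 and 0.382 (GL261), and at most 1.08 in any BMDM or monocyte library. Tumour MG thus held a small part of the normal level. Gpr165 was 66-fold lower in GEMM MG (log2 -6.05 ± 0.87, adjusted p = 2.66e-05) and 83.3-fold lower in GL261 MG (log2 -6.38 ± 0.88, adjusted p = 9.34e-06) than in normal MG. Without GEMM MG BB30105 the first became -6.79, and without GL261 MG 80766 the second became -7.25. Its lineage calls rest on few counts: that of GEMM was lost with the replicate block (adjusted p = 0.0634), with DESeq2 (adjusted p = 0.112), with no filter (adjusted p = 0.0874), in a fit of just the groups compared (adjusted p = 0.146) and without 4 of the 6 libraries in turn (GEMM MG 68702 and BB30105, GEMM BMDM 68702 and BB30101), and that of GL261 without 3 of 6 (GL261 MG 80766, GL261 BMDM 80766 and 80769).

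Gpr141, an orphan, was at 353 to 438 CPM in monocytes, and BMDM had 30.2, 32.7 and 45.4 (GEMM) and 113, 61.7 and 18.3 (GL261). GL261 MG had 3.52, 3.81 and 22.9 CPM, GEMM MG averaged 0.872 and normal MG 0.0709. Gpr141 was 10.4-fold lower in GEMM BMDM (log2 -3.38 ± 0.59, adjusted p = 9.33e-05) and 6.48-fold lower in GL261 BMDM (log2 -2.70 ± 0.56, adjusted p = 0.000482) than in monocytes. Without GL261 BMDM 80766 the latter became -3.42. It was 39.7-fold higher in BMDM than MG in GEMM (log2 5.31 ± 0.71, adjusted p = 4.64e-05), which became 5.94 without GEMM MG BB30101. In GL261 the groups overlapped through tumour 80769, whose MG had more Gpr141 than its BMDM, and the call (log2 2.99 ± 0.61, adjusted p = 0.00237) was lost with the replicate block (adjusted p = 0.0619). It became 4.40 without GL261 MG 80769 and 2.33 without GL261 BMDM 80766. In a fit of just the groups compared its adjusted p was 0.103. The MG of that tumour, with the highest Gpr141 among MG, also had the highest Chi3l3 (5643 CPM) and Fn1 (1232 CPM) among MG, but not the highest Ly6c2 or Plac8, and the part of these genes' source in the result was not tested.

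Gpr157 averaged 46.5 ± 12.1 CPM in GEMM MG and 42.8 ± 26.1 in GEMM BMDM, 26.6 ± 13 in GL261 MG and 28.8 ± 9.82 in GL261 BMDM, with 25.7 for normal MG and 1.36 for monocytes. It was 34.4-fold higher in GEMM BMDM (log2 5.10 ± 0.58, adjusted p = 9.23e-07) and 20.2-fold higher in GL261 BMDM (log2 4.33 ± 0.58, adjusted p = 4.60e-06) than in monocytes, and without GEMM BMDM 68702 the former became 4.39. Gpr146 averaged 125 ± 8.61 CPM in normal MG, 60.3 ± 10.8 in GEMM MG and 36.7 ± 14.1 in GL261 MG. Its fall in GL261 MG was 4.19-fold (log2 -2.07 ± 0.33, adjusted p = 4.21e-05), and its call in GEMM MG (log2 -0.91 ± 0.32, adjusted p = 0.0274) was lost without normal MG 67572 or 67573 or GEMM MG BB30101 or BB30105 (adjusted p from 0.0561 to 0.129) and with no filter on low counts (adjusted p = 0.0553). Gpr160 averaged 74.7 ± 7.13 CPM in normal MG and fell 2.94-fold in GL261 MG (log2 -1.56 ± 0.37, adjusted p = 0.00151). Gpr162 averaged 5.79 CPM in GEMM MG, 0.952 in normal MG and 0.0256 in monocytes, and rose 6.7-fold in GEMM MG over normal MG (log2 2.74 ± 0.63, adjusted p = 0.00183).

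The members that sit in inner membranes or belong to other families varied least in their group means. They were not unchanged: Gpr180 and Gpr89 were each called in 4 of the 9 comparisons, Gpr137 in 3, and Gpr107 and Gpr108 in 2. The calls of Gpr107, and that of Gpr137 between GL261 and GEMM MG, were lost on leaving out some single libraries. Gpr107 and Gpr108, of the Golgi, had group means of 54.3 to 78.1 and 86.7 to 137 CPM, and Gpr180, Gpr137 and Gpr89, the last a Golgi pH regulator, had group means of 19.1 to 44.4, 18.3 to 32.8 and 13.7 to 30.6 CPM. Gpr155, a lysosomal cholesterol sensor, was the exception, with 314 ± 34.4 CPM in normal MG. Tumour MG had 90.7 ± 18.1 (GEMM) and 58 ± 18.7 CPM (GL261), BMDM had 44 ± 16 and 22.6 ± 4.94 in the same order, and monocytes 15.2 ± 1.19. It was 3.15-fold lower in GEMM MG (log2 -1.66 ± 0.27, adjusted p = 0.000102) and 6.69-fold lower in GL261 MG (log2 -2.74 ± 0.28, adjusted p = 3.8e-07) than in normal MG. BMDM were lower than MG in GEMM (log2 -1.02 ± 0.27, adjusted p = 0.0114) and GL261 (log2 -1.07 ± 0.27, adjusted p = 0.0106), calls that were lost without GEMM BMDM BB30101 (adjusted p = 0.0625) and without GL261 MG 80767 or GL261 BMDM 80766 (adjusted p = 0.0593 and 0.0544) or, for GL261, in a fit of just the groups compared (adjusted p = 0.096). Gpr108 was 1.57-fold higher in GL261 BMDM than MG (log2 0.65 ± 0.13, adjusted p = 0.00225), a call lost in a fit of just the groups compared (adjusted p = 0.0841). Opposite-strand exons of Pdzk1 cover 24.8% of the exon bases of Gpr89. Gpr116, an adhesion receptor of lung surfactant control, averaged 6.61 CPM in GL261 BMDM and at most 4.66 in the other groups.

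The members Gpr3, Gpr15, Gpr21, Gpr30, Gpr33, Gpr85, Gpr124 and Gpr133 had group means under 5 CPM in all groups. Gpr3 and Gpr30 were called in none of the 9 comparisons, and the others of this set were each called in at least 1.

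Genes that carry the receptors' signal were counted between BMDM and MG in the same way, where 20.8% of all genes tested were called in GEMM and 17.5% in GL261. Of 13 G protein alpha subunits, 2 were higher and 2 lower in GEMM BMDM than MG, and 2 were higher and 3 lower in GL261. Gna14, of the Gq class, averaged 31.3 ± 6.9 CPM in GEMM BMDM but 1.29 ± 0.556 in those of GL261 and at most 2.63 in MG. Its lineage difference was 11.9-fold in GEMM, with BMDM higher (log2 3.58 ± 0.49, adjusted p = 5.77e-05), and it differed between the models (log2 -3.08 ± 0.69, adjusted p = 0.0312). Gnas, which encodes the subunit that activates adenylyl cyclase, averaged 387 ± 23.5 CPM in normal MG and 1358 ± 40.6 in GEMM MG, a rise of 3.84-fold (log2 1.94 ± 0.15, adjusted p = 5.01e-08). Of 16 beta and gamma subunits, 3 were higher and 2 lower in GEMM BMDM than MG and 2 higher and 3 lower in GL261. Of 17 RGS proteins tested, which end G protein signals, 4 were higher and 1 lower in GEMM and 5 were higher in GL261. Rgs14 was among both, at 3.51-fold (log2 1.81 ± 0.19, adjusted p = 5.63e-06) and 3.23-fold higher (log2 1.69 ± 0.19, adjusted p = 1.37e-05).

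Of 7 receptor kinases and arrestins tested, Grk6 and Adrbk2 were higher in BMDM than MG in both models and none was lower. Grk6 was 3.35-fold higher in GEMM (log2 1.74 ± 0.21, adjusted p = 1.71e-05) and 1.79-fold higher in GL261 (log2 0.84 ± 0.21, adjusted p = 0.00904). Against monocytes 6 of these 7 were lower and 1, Arrb2, was higher in BMDM of both models, where 25.7% (GEMM) and 28.9% (GL261) of all genes were lower and 31.6% and 34.1% higher. Of 9 adenylyl cyclases tested, 2 were higher and 1 lower in GEMM BMDM than MG, and 2 were higher in GL261. Adcy3 was the lower one (4.92-fold, log2 -2.30 ± 0.58, adjusted p = 0.00882), and it was 7.38-fold higher in GEMM MG than normal MG (log2 2.88 ± 0.60, adjusted p = 0.000825).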

How the data were processed

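RNA of sorted cells was amplified with a Smart-Seq kit and sequenced. Per the submitters' processing notes the tools were CASAVA 1.8, STAR 2.5.0e, HTSeq and DESeq2 with the build mm10, without roles or order, and neither annotation nor strand setting is known from them. The authors deposited 1 table of raw counts per gene symbol, whose 20 columns each matched 1 sample (0 were left unmatched). Titles say GEMM where the column names say RCAS.

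Levels are CPM, a count divided by its library's total. Tests used edgeR 4.0.16 (R 4.3.3) on the deposited counts, with filterByExpr (minimum count 10, minimum total 15), TMM scaling and the robust quasi-likelihood fit over all 20 libraries in 6 groups. P-values were adjusted over all 15363 genes tested by the Benjamini-Hochberg method. The script was tested on simulated data. Alternatives were RLE scaling, no filter, DESeq2 1.42.0, only the groups compared, tumour number as a block, and leaving out each library. Other settings were chosen after seeing the data: without tumour 80769, and without monocyte libraries 64820 and 64821.

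MG and BMDM with the same tumour number deviated together, with correlations of 0.32, 0.22 and 0.20 in GEMM and 0.39, 0.22 and 0.39 in GL261, so the numbers were taken to pair them, and blocked values stand beside a result where they change a call. Positions and lengths are from GENCODE M21, to which all 47 members matched, 11 through an older name. Named members are those called in at least 1 of the 9 comparisons with a mean of at least 5 CPM in a group, and all proton-sensing and lipid members; named pathway genes are up to 3 per list and direction with the smallest adjusted p. Values of 3 members are not reported here, though counts over the list include them. The members and lists were chosen with earlier results of these data known. Intervals are not given because PCR-amplified reads are not independent molecules; 3 counts were taken as the floor for a fold.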

Additional observations from a re-analysis of the deposited data

Results flagged for a closer look

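For the 35 named members with more than 3 monocyte counts, the 5 monocyte libraries were searched for a library far from the rest, where the gap to the nearest library exceeded 0.71 of the group's range, and chance gives such a library in about 1 in 20 groups. It was found for 4 of these 35. Gpr141 was at 353 CPM in library 64817, below the 419 to 438 of the other 4. Gpr146 was at 102 CPM in the same library, above the 51.5 to 63.6 of the others. Gpr180 was at 16.1 CPM in library 64821, below 19.1 to 20.3. Gpr89 was at 12.4 CPM in library 64819, below 14 to 14.2.

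The lineage difference differed between the 2 models for 2 members in edgeR's quasi-likelihood test of the interaction. For Gpr126 the log2 fold change of BMDM over MG was 5.39 lower in GL261 than in GEMM (-5.39, adjusted p = 0.0047). For Gpr4 it was lower as well (-2.81, adjusted p = 0.02).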

How the results depend on the processing

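No call of a named member changed direction under any alternative run; single-gene values were not recomputed for the other members. When the fit held only the libraries of the comparison, 7 members in place of 17 were called between GL261 BMDM and MG, 9 in place of 17 between GL261 and GEMM BMDM, and 1 in place of 2 in the interaction; such fits have fewer samples to estimate the spread. Of all named members' calls they kept 143 and lost 21, and they added 9. DESeq2 called 5 members in the interaction. Leaving out 1 library at a time gave 19 to 24 calls for GEMM BMDM against MG (25 with all), 14 to 17 for GL261 BMDM against MG, 1 to 3 in the interaction and 11 to 15 for GL261 against GEMM BMDM. Over the named members and all comparisons, 1036 such refits kept a call and 126 lost it. DESeq2 kept 173 calls of named members and lost 2, RLE scaling kept 172 and lost 3, and no filter on low counts kept 162 and lost 13. With DESeq2, 50.6% of the genes called between GL261 BMDM and MG were higher in BMDM, against 61.1% with edgeR. RLE scaling moved the median of all genes in GEMM BMDM against monocytes from 0.08 to -0.03. With tumour number as a replicate block, 25, 17 and 2 members were called in GEMM, GL261 and the interaction, as without it; of named members' calls 38 were kept and 3 lost, Gpr165 in GEMM (adjusted p = 0.0634) and Gpr141 and Gpr174 in GL261 (adjusted p = 0.0619 and 0.0793), and the block added Gpr97 in GEMM (adjusted p = 0.0482) and Gpr125 in GL261 (adjusted p = 0.0123). Without tumour 80769, 15 members were called between GL261 BMDM and MG and 21 between GL261 and GEMM BMDM, where Gpr132 lost its call (adjusted p = 0.0503) and Gpr141 gained one (log2 1.13, adjusted p = 0.00734). A minimum of 0.5 CPM would have given 56 members and 2 CPM 43. Monocyte libraries are the shallowest, which limits what can be said of members under 1 CPM there.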
